A study of Mus musculus with 42 samples.

Results

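To examine the Hippo pathway's transcriptional output in cells exposed to bisphenol S (BPS), an estrogen-mimicking bisphenol, expression of 10 genes was followed through all 14 groups of an RNA-seq data set of 42 mouse libraries. The 10 genes were taken by symbol from a table of 22186 genes. They comprise 7 reported targets of YAP and TEAD (Ccn1, Ccn2, Ankrd1, Amotl2, Axl, Lats2 and Ajuba) and 3 genes of the factors themselves (Yap1, Wwtr1 and Tead1). All 10 symbols were found. The set was chosen by measured values of these data, namely the higher Ccn1 and Ccn2 levels in exposed induced pluripotent stem cells (iPSCs) of 2 experiments. Member values from exposed iPSCs are therefore given as a description, and no test on them is used. The rise was taken over vehicle iPSCs, so their Ccn1 and Ccn2 levels entered the choice too. Differences of Ccn1 and Ccn2 between other cells and vehicle iPSCs are likewise a description.

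In the Hippo pathway, the kinases LATS1 and LATS2 phosphorylate the coactivators YAP (Yap1) and TAZ (Wwtr1), which are then held in the cytoplasm or degraded. Unphosphorylated YAP and TAZ enter the nucleus and bind TEAD factors, which recognise DNA. Cell density, cell shape, tension of the actin cytoskeleton and serum lipids are known inputs. Ccn1 and Ccn2 encode secreted matricellular proteins and are the most often used readouts. Adherent stromal cells usually express them at high levels, and pluripotent cells grown as compact colonies at low levels.

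Each group held 3 libraries. In the dose series, iPSCs received the ethanol vehicle or 1, 50 or 100 µM BPS. Sertoli cells, granulosa cells and primordial germ cell-like cells (PGCLCs) received the vehicle or 1 µM BPS. In a propagation experiment, iPSCs received the vehicle or 1 µM BPS, and PGCLCs were then derived from them without further exposure ("derived PGCLCs"). Exposure lasted 24 h, followed by 24 h in fresh medium, or by 8 h for directly exposed PGCLCs. All iPSCs and PGCLCs came from 1 male line, reprogrammed from fibroblasts of a single fetus that carried the doxycycline-inducible tetO-4F2A cassette. Sertoli and granulosa cells were primary cultures from about 5 juvenile littermates at P20 each, male and female respectively, pooled and divided among flasks. PGCLCs were sorted as double positive for FUT4 and ITGB3. Replicates are thus cultures of 1 line or 1 pool, and p-values measure the spread between these samples, which may be technical. The labels say nothing further about batches.

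Depth was 26693847 to 44524376 reads per library, so that 1 read was worth 0.0220 to 0.0385 CPM, the reads of a gene scaled to library size, which is the unit of levels here. Sertoli markers held in part, with means of 336 CPM for Sox9 and 377 CPM for Wt1 in the vehicle libraries but 7.49 CPM for Amh and 0.38 CPM for Rhox5. Granulosa markers also held in part, with 7 of the 8 listed genes found. Vehicle means were 140 CPM for Foxl2 and 1300 CPM for Inha in granulosa cells, against 0.30 and 217 CPM in Sertoli cells. Amhr2, Fst and Nr5a2 were higher in granulosa cells as well. Fshr was lower there, at 0.45 against 3.93 CPM, as was Inhbb, at 93.1 against 105 CPM. The PGCLC markers held in part too. Tfap2c was at 120 CPM in PGCLC vehicle libraries against 59.96 CPM in iPSCs, and Prdm1, Nanos3, Dnd1 and Itgb3 were also higher, but Dppa3 was at 20.8 against 37.7 CPM, Kit at 89.6 against 219.96 CPM and Prdm14 at 42.6 against 44.7 CPM, and the 8 markers summed to a mean of 362 against 401 CPM. Of 10 fibroblast markers, 10 reached a mean of 1 CPM in granulosa vehicle libraries and 8 in Sertoli vehicle libraries, and their summed levels were 5402.5 to 5754 CPM and 2514 to 2542 CPM, against 6.39 to 6.93 CPM in iPSCs. Smooth muscle and peritubular myoid markers summed to 1241 to 1356 CPM in Sertoli and 2110 to 2165 CPM in granulosa vehicle libraries. Leydig and theca markers summed to 193 to 199.5 CPM and 1315 to 1466 CPM in the same order. The part of stromal, smooth muscle, Leydig or theca cells in the member levels of these cultures was not tested. Replicate 2 of the exposed propagation iPSCs stood apart, with 15.1% of genes over 0.5 log2 units from the other 2 libraries, as to a lesser degree did vehicle replicate 2 of the derived PGCLCs with 4.39%.

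TEAD factors bind the core GGAATG, read as CATTCC on the other strand. RefSeq promoter windows of GRCm38.p6, from 250 bases before to 50 bases after a start, were matched by symbol for 8 of the 10 members, giving 10 windows. No window was found for Ccn2 and Tead1. Windows of 3 targets are shown: Ccn1, on which most results turn, Amotl2, a feedback gene that was higher in exposed iPSCs, and Ankrd1, which carries the core at 2 places. Ajuba, not shown, carries it at 2 places as well. The windows shown are written 5′ to 3′ on the strand of the gene, with the core in capitals. Ccn1 is at chr3:145649936-145650235 on the minus strand, Amotl2 at chr9:102717554-102717853 on the plus strand and Ankrd1 at chr19:36119795-36120094 on the minus strand.
Ccn1: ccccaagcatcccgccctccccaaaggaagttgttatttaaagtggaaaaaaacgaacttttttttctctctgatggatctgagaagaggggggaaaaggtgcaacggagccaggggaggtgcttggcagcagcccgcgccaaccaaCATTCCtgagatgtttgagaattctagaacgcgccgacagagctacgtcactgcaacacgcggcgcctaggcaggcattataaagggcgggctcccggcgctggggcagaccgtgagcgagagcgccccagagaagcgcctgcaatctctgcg
Amotl2: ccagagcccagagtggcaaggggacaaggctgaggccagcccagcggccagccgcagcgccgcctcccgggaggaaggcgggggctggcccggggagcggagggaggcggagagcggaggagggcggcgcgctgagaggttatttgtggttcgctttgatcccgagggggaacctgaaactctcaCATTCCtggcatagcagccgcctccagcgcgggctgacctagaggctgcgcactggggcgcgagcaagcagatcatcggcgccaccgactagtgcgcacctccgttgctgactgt
Ankrd1: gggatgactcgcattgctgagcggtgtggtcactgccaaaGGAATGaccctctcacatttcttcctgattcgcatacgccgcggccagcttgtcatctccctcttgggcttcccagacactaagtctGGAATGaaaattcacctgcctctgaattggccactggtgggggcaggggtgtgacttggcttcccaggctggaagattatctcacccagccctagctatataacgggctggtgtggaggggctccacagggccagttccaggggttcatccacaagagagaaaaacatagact

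The core starts 103 bases before the start of Ccn1 and 65 bases before that of Amotl2, and in Ankrd1 at 210 and 123 bases. It occurred in 9 of the 10 member windows, and in 4817 of 32851 promoter windows of the same length, or 14.7%. The 2 Wwtr1 windows overlap and share 1 site. Windows of Axl, Yap1 and Ajuba also held it, as did 1 of the 2 Lats2 windows. The other Lats2 window was the member window without it. Another word of the same length, AGGAAG, chosen after its values were seen, was also in 9 of the 10 member windows and in 35.4% of all. Among the windows of other YAP and TAZ targets, 2 of 11 held the core. The AP-1 motif TGANTCA and the CArG box, the site of serum response factor (SRF), were in 0 of the 10 member windows, against 7.81% and 1.63% of all windows. Both strands were searched in each case, and no match of the core overlapped another motif, since neither occurred. A match is a description of the letters only.

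**Figure D1:**
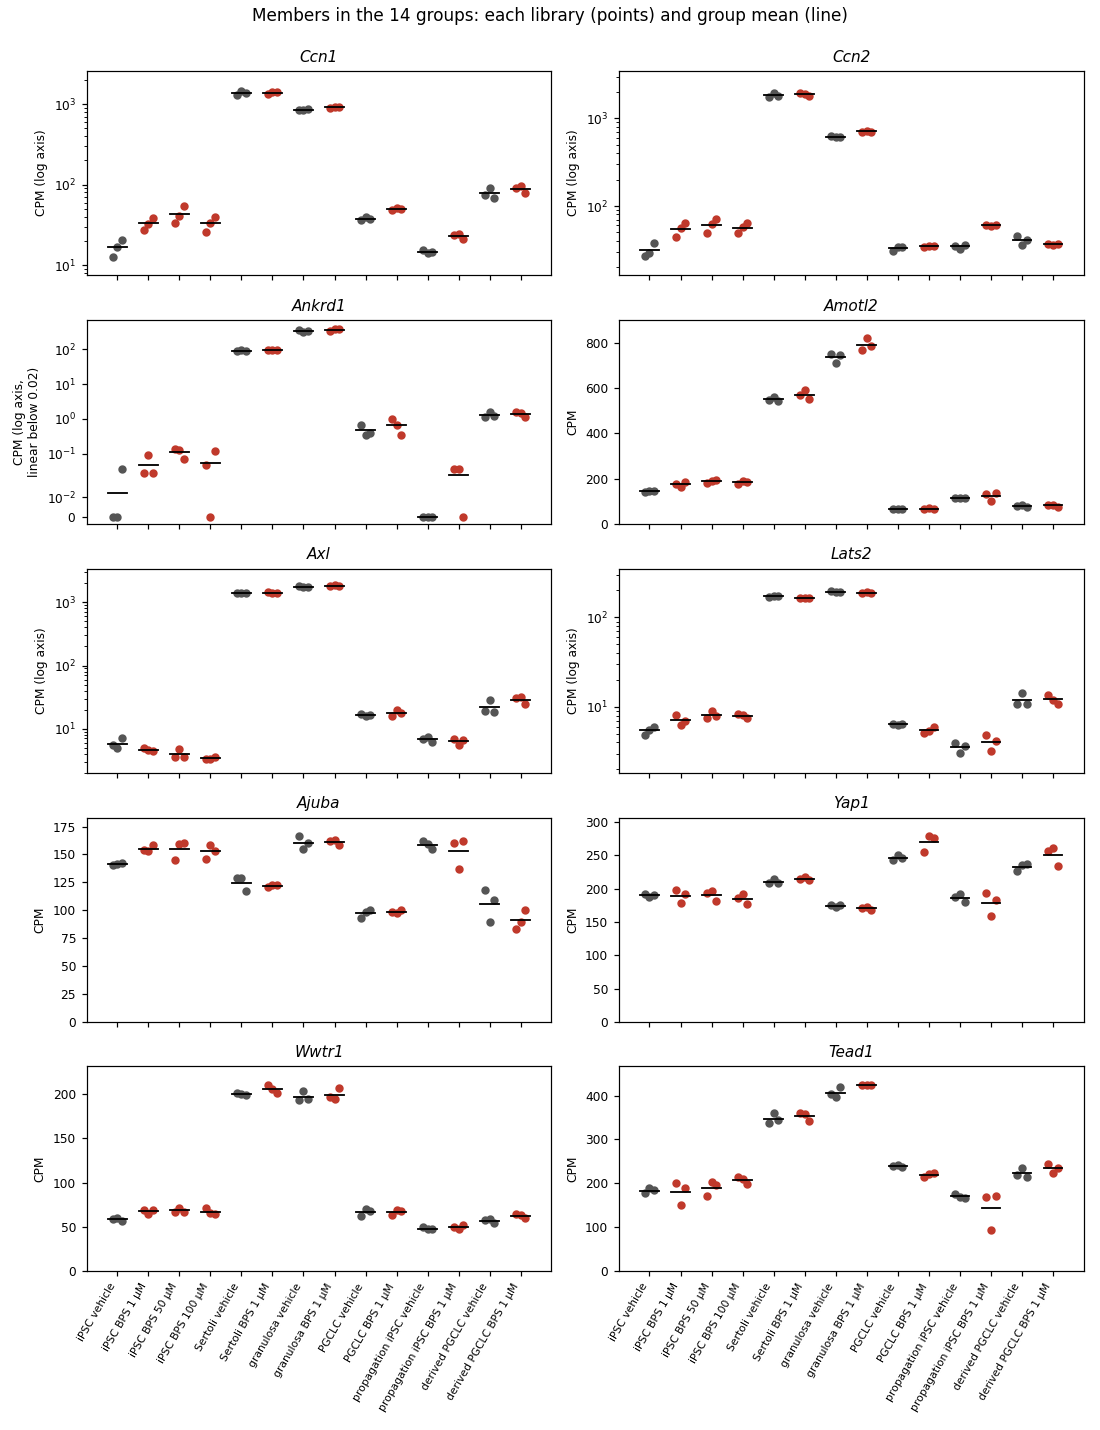
Levels of the 10 members in every library, in CPM, by group; grey points are vehicle libraries, red points BPS libraries and lines the group means of 3. Axes are linear from 0 for Amotl2, Ajuba, Yap1, Wwtr1 and Tead1, logarithmic for Ccn1, Ccn2, Axl and Lats2, and logarithmic above 0.02 CPM for Ankrd1; Sertoli and granulosa libraries lie above all iPSC and PGCLC libraries for every member except Ajuba and Yap1.

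The secreted targets Ccn1 and Ccn2 stood far higher in the cultured gonadal cells than in iPSCs. Ccn1 (chr3:145646976-145649981, minus strand; gene spans are GRCm38 with the GENCODE M21 annotation) stood at 1313, 1437 and 1355 CPM in Sertoli vehicle libraries and at 838, 836 and 870 CPM in granulosa vehicle libraries. It stood at 12.5, 16.8 and 20.6 CPM in the iPSC vehicle libraries. In PGCLC vehicle libraries it was at 36.8, 39.4 and 37.5 CPM, and in derived ones at 75.5, 91.0 and 68.6 CPM. Over the 6 vehicle groups the order was Sertoli, granulosa, derived PGCLC, PGCLC, iPSC and propagation iPSC, and only the last pair overlapped. Ccn2 (chr10:24595442-24598683, plus strand) was at 1771, 1921 and 1816 CPM in Sertoli and at 628, 606 and 608 CPM in granulosa vehicle libraries. Its iPSC and PGCLC vehicle libraries, at 27.0 to 37.4 and 30.4 to 34.2 CPM, overlapped.

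Ankrd1 (chr19:36111961-36120099, minus strand) encodes a nuclear and sarcomeric ankyrin-repeat protein. It was at 359, 320 and 332 CPM in granulosa vehicle libraries and at 91.0, 95.7 and 91.2 CPM in Sertoli vehicle libraries. The 3 iPSC vehicle libraries held 1 read in all and the 3 propagation iPSC vehicle libraries 0 reads, where a count of 0 allows up to 3. No fold against iPSCs is given for this gene, since its fitted value depends on the CPM added before the log. The receptor tyrosine kinase Axl (chr7:25757273-25788705, minus strand) stood at 1388, 1412 and 1410 CPM in Sertoli and 1824, 1763 and 1757 CPM in granulosa vehicle libraries, against 5.50, 4.86 and 7.05 CPM in iPSCs. The groups were far apart.

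The remaining targets act back on the pathway. The scaffold gene Amotl2 (chr9:102716672-102733418, plus strand), whose product binds YAP, was at 542 to 558 CPM in Sertoli vehicle libraries and at 708.5 to 748 CPM in granulosa ones. It was at 139.9 to 148 CPM in iPSCs and 64.9 to 68.5 CPM in PGCLCs. The kinase gene Lats2 (chr14:57689662-57758388, minus strand) was at 169 to 175 CPM in Sertoli and 191 to 195 CPM in granulosa vehicle libraries, and at 4.86 to 6.03 CPM in iPSCs. Ajuba (chr14:54567472-54577558, minus strand), a LIM protein that binds LATS kinases, kept within 89.8 to 166 CPM over all vehicle libraries outside the 2 iPSC experiments, and within 140.2 to 162 CPM in those.

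Of the factors, Yap1 (chr9:7931999-8004596, minus strand) had the narrowest span, with vehicle means from 175 CPM in granulosa cells to 246 CPM in PGCLCs. Wwtr1 (chr3:57455649-57575910, minus strand) was at 199.9 CPM ± 1.19 (SD, n = 3) in Sertoli and 197 CPM ± 5.29 (SD, n = 3) in granulosa cells, which overlapped, and at 58.4 CPM ± 1.76 (SD, n = 3) in iPSCs. Tead1 (chr7:112679318-112906807, plus strand) ran from 170.4 CPM ± 4.51 (SD, n = 3) in propagation iPSCs to 406 CPM ± 11.5 (SD, n = 3) in granulosa cells.

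Per kilobase of exon, the order of the members themselves changed with cell type. In iPSC vehicle libraries Ajuba led with a mean of 38.8 CPM per kb, followed by Amotl2 at 23.1 and Yap1 at 20.6 CPM per kb, and Ccn1 was at 8.24 CPM per kb. In Sertoli vehicle libraries Ccn1 led with 678 CPM per kb and Ccn2 followed with 642 CPM per kb. In granulosa vehicle libraries Ccn1 at 420 CPM per kb and Axl at 354 CPM per kb led. In PGCLC vehicle libraries Ajuba and Yap1 were highest, at 26.7 and 26.6 CPM per kb.

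Vehicle libraries of the cell types were compared in 1 limma fit, and the comparisons with iPSCs share the same 3 iPSC libraries. Cell type, sex, source animals and culture conditions cannot be told apart in them. The iPSC vehicle libraries of both experiments entered the choice of the set through Ccn1 and Ccn2. Differences of these genes against iPSCs are therefore a description, although the counts against iPSCs below include them. Ankrd1, with 1 read over the iPSC vehicle libraries, entered this fit only through cells where it is higher, so its direction against iPSCs was fixed by the filter on low values and it is left out of the counts against iPSCs, which are over genes at 0.5 CPM or more in all 6 libraries compared. Between Sertoli cells and iPSCs, 8 of the other 9 members were higher in Sertoli cells and 1, Ajuba, was lower, where 44% of 12948 such genes were higher and 46.7% lower. The log2 difference was 6.39 for Ccn1, 5.89 for Ccn2, 7.93 for Axl and 4.98 for Lats2 (SE 0.12, 0.09, 0.13 and 0.10). It was 1.92 for Amotl2, 1.78 for Wwtr1 and 0.92 for Tead1. The small differences of Yap1 (0.15) and Ajuba (−0.18) did not hold under every alternative: Yap1 missed the threshold under upper-quartile scaling (limma adjusted p = 0.273), which also moved the median of all genes by −0.113, and Ajuba under median-of-ratios scaling (limma adjusted p = 0.136) and without Sertoli vehicle replicate 3 (limma adjusted p = 0.0901).

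Between granulosa cells and iPSCs, 8 of these 9 members were higher in granulosa cells and Yap1 was lower, against backgrounds of 42.6% and 46.8%. Ccn1 differed by 5.70, Ccn2 by 4.31, Axl by 8.27 and Lats2 by 5.15 log2 units. Amotl2 differed by 2.34, Wwtr1 by 1.75 and Tead1 by 1.15, and Yap1 by −0.12. Ajuba, higher by 0.18, missed the threshold without granulosa vehicle replicate 1 (limma adjusted p = 0.0679) and under upper-quartile scaling (limma adjusted p = 0.0662).

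Between the cultured gonadal cells the members did not all differ in the same direction. Granulosa cells held 5 of 10 members higher than Sertoli cells and 3 lower, where 38.6% and 35.7% of 14101 genes at 0.5 CPM or more in all 6 libraries were. The share of members called was thus close to the background. Ccn2 was lower by 1.58 log2 units, Ccn1 by 0.69 and Yap1 by 0.27 (differences of −1.58, −0.69 and −0.27). Ankrd1 was higher by 1.86, Amotl2 by 0.42, Ajuba by 0.36, Axl by 0.34 and Tead1 by 0.23. Axl missed the threshold in turn without granulosa vehicle replicate 1 (limma adjusted p = 0.0651) and without Sertoli vehicle replicates 1, 2 or 3 (limma adjusted p = 0.0585, 0.051 and 0.0511), and Tead1 in the fit of all 42 libraries (limma adjusted p = 0.0863). Lats2 was not called, with a difference of 0.17 (SE 0.10), although its groups did not overlap. Of all genes, 41.4% had every granulosa library above every Sertoli library and 39.2% below. Lats2 was retested under the alternatives. It passed in 3 of 16 alternatives, namely the fit of the 6 libraries compared (limma adjusted p = 7.29e-05), limma-voom (adjusted p = 0.000465) and upper-quartile scaling (limma adjusted p = 0.0446). Wwtr1 differed by −0.02 (SE 0.04) and passed in none of 16.

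In PGCLCs, 6 of the 9 members were higher than in iPSCs and 2 lower, against backgrounds of 34.6% and 43.2%. Ccn1 was higher by 1.21 log2 units, Axl by 1.51, Tead1 by 0.38, Yap1 by 0.37 and Wwtr1 by 0.20. Ankrd1, left out of the count, was at 0.354 to 0.665 CPM. Amotl2 and Ajuba were lower, with differences of −1.12 and −0.54. Ccn2 did not follow Ccn1, with a difference of 0.08 (SE 0.09) and overlapping groups. Lats2, at 0.24 (limma adjusted p = 0.0488), was called in only 7 of 16 alternatives and lost without any of the 3 PGCLC vehicle libraries or without iPSC vehicle replicate 1 or 2 (limma adjusted p = 0.0783 to 0.224).

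Derived PGCLCs were compared with the propagation iPSCs in the same way. There 7 of the 9 members were higher and 2 lower, against 32.8% and 43.4% of genes. Ccn1 differed by 2.41, Lats2 by 1.75 and Axl by 1.65 log2 units, and Tead1, Yap1 and Wwtr1 by 0.38, 0.32 and 0.25. Ccn2 differed by 0.23, a value given without a test. Amotl2 and Ajuba were again lower, by −0.52 and −0.59.

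The other genes of the pathway were read from fixed lists. Of the 16 other YAP and TAZ targets, 13 were at 0.5 CPM or more in all Sertoli and iPSC vehicle libraries. All 13 were higher in Sertoli cells, led in size by Crim1 at 8.24 log2 units, with a median of 3.37 against −0.06 over all genes so detected. In granulosa cells 10 of the same 13 were higher and 2 lower than in iPSCs. Of 12 SRF and actin targets, 7 were so detected, and all 7 were higher than in iPSCs in both cell types, with medians of 4.17 in Sertoli and 2.76 in granulosa cells. The other 5 (Acta2, Tagln, Cnn1, Myl9 and Actg2) entered the fit only through cells where they are higher and are not counted. Within the CCN family, Ccn5 was at 31.8 CPM in granulosa vehicle libraries and at 0 reads in iPSC vehicle libraries, and Ccn3 was at 6.36 to 7.66 CPM in Sertoli and 0.307 to 0.501 CPM in granulosa vehicle libraries. Ccn4 was higher than in iPSCs by 4.24 in Sertoli cells and by 5.15 in granulosa cells. Ccn6, at 0.41 to 0.49 CPM in these 3 cell types, did not differ beyond its spread.

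**Figure D2:**
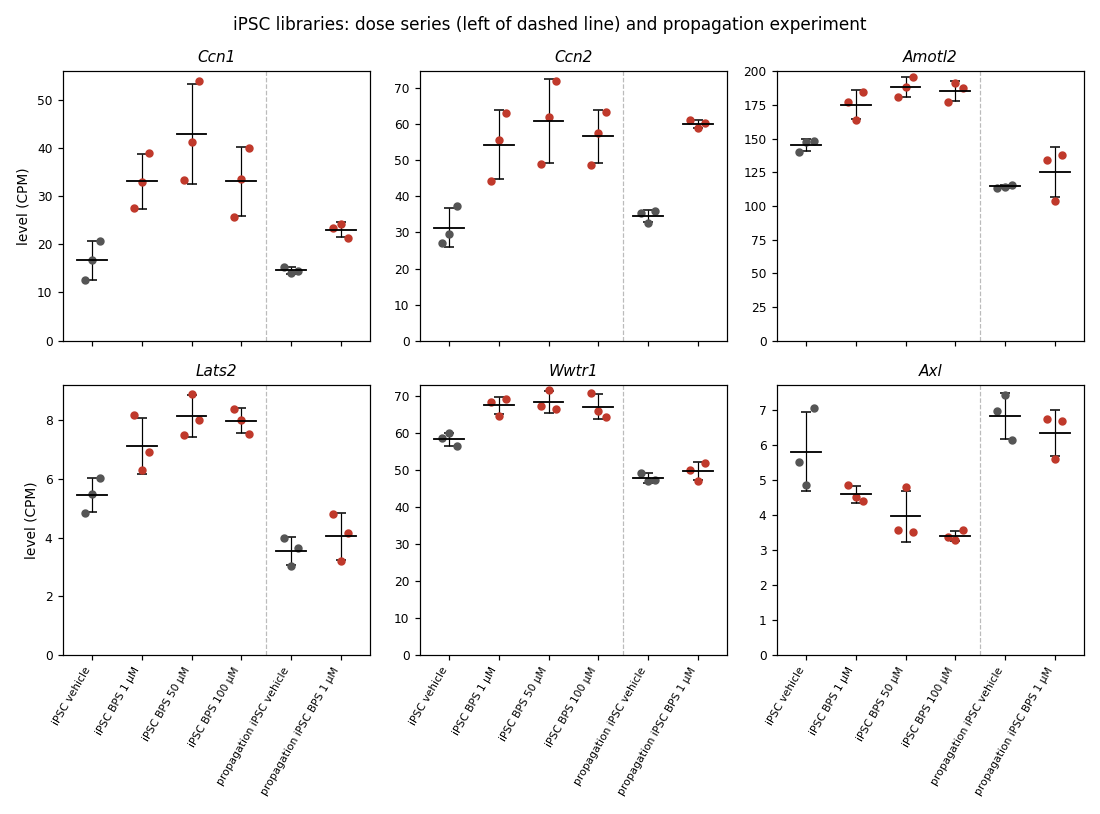
Levels of members in the iPSC libraries of the dose series and the propagation experiment, in CPM; grey points are vehicle, red points BPS, and bars give the mean ± SD of 3 libraries. Ccn1 and Ccn2 lie above the vehicle libraries at every dose and in both experiments, and Axl lies below at every dose of the dose series.

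In the dose series, exposed iPSCs held more Ccn1 and Ccn2 RNA than vehicle iPSCs at each dose. These values chose the members and are a description. Ccn1 went from 12.5, 16.8 and 20.6 CPM with vehicle to 27.5, 32.9 and 39.0 CPM at 1 µM. At 50 µM it was at 33.3, 41.3 and 53.9 CPM, and at 100 µM at 25.6, 33.5 and 40.1 CPM. All 9 exposed libraries were above all 3 vehicle libraries, and the doses overlapped each other. The log2 difference from vehicle was 1.01, 1.36 and 1.00 (SE 0.18 each) at 1, 50 and 100 µM. Ccn2 went from 27.0, 29.4 and 37.4 CPM to 44.3, 55.5 and 63.2 CPM at 1 µM, 48.9, 62.01 and 71.9 CPM at 50 µM and 48.8, 57.6 and 63.5 CPM at 100 µM. Again no exposed library fell among the vehicle ones. Its log2 differences were 0.80, 0.96 and 0.86 (SE 0.14 each). The 3 doses share the vehicle libraries. Such separation was common: 13.7%, 20.4% and 23.6% of genes had every exposed library above every vehicle library at 1, 50 and 100 µM. At the same doses 14.1%, 24.4% and 26.3% of genes had every exposed library below.

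The levels at 100 µM were no higher than at 50 µM. For Ccn1, 50 µM was above 1 µM by 0.36 log2 units (SE 0.18) and 100 µM was below 50 µM by 0.37 (difference −0.37, SE 0.18). For Ccn2 the same differences were 0.16 and −0.10 (SE 0.14 each). Axl was the exception in direction: it went from 5.50, 4.86 and 7.05 CPM with vehicle to 4.86, 4.52 and 4.39 CPM at 1 µM, 3.58, 4.80 and 3.502 CPM at 50 µM and 3.36, 3.30 and 3.57 CPM at 100 µM. Its log2 differences from vehicle were −0.32, −0.55 and −0.75 (SE 0.14 each).

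Negative-feedback members were also higher. Amotl2 was at 139.9, 147.6 and 148.2 CPM with vehicle and at 177.5, 163.7 and 184.6 CPM at 1 µM, with log2 differences of 0.27, 0.37 and 0.35 (SE 0.05 each) over the doses. Lats2 was at 4.86, 5.50 and 6.03 CPM with vehicle and 8.18, 6.30 and 6.93 CPM at 1 µM, with differences of 0.38, 0.58 and 0.55 (SE 0.11 each). Both had no overlap with vehicle at any dose, to be read against the shares of all genes given above. Wwtr1 had differences of 0.21, 0.23 and 0.20 (SE 0.05 each), and went from 58.7, 59.9 and 56.5 CPM to 68.6, 64.7 and 69.2 CPM at 1 µM. Ajuba had differences of 0.13, 0.13 and 0.11 (SE 0.05 each). Yap1 had differences of −0.01, 0.00 and −0.04 (SE 0.05 each), and its vehicle libraries at 188.0 to 192 CPM lay among the exposed ones. Tead1 had differences of −0.04, 0.05 and 0.18 (SE 0.08 each), and only at 100 µM, with 199 to 215 CPM against 177 to 189 CPM, did all its exposed libraries exceed the vehicle ones. Ankrd1 had 1 read in all in the vehicle libraries and 5, 10 and 6 reads at the 3 doses, too few for the filter on low values, so 9 of 10 members entered the fit.

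Marker levels of these cells moved with the exposure. The summed level of the 8 PGCLC markers, all detected, was 389 to 409 CPM with vehicle, 324 to 372 CPM at 1 µM, 316 to 344 CPM at 50 µM and 342 to 357 CPM at 100 µM. That of the 8 pluripotency markers, all detected, was 5619 to 5814 CPM with vehicle and 5833 to 6436, 6043 to 6249 and 6028 to 6235 CPM at the doses in turn. For both lists no exposed library fell among the vehicle ones. The pluripotency markers did not move together. Mean Dppa5a went from 1308 to 1632, 1706 and 1653 CPM, and Pou5f1, Zfp42, Klf4 and Tdgf1 also had higher means at every dose. Nanog (689 to 663, 625 and 638 CPM) and Esrrb (748 to 729, 720 and 726 CPM) were lower at every dose, and Sox2 was mixed. The summed level of the 10 fibroblast markers was 6.01 to 8.90 CPM over the 12 libraries, with 4 of 10 at a mean of 1 CPM or more in each group. The part of these markers in the member values was not tested.

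Genes beside the members were read against all genes tested, of which 5.61% were called higher and 2.94% lower at 1 µM, 13.1% and 13.3% at 50 µM and 15.3% and 15.4% at 100 µM. At 1 µM Nt5e, the ecto-5'-nucleotidase CD73, was at 9.64, 9.93 and 9.87 CPM with vehicle and 15.8, 17.4 and 18.6 CPM at 1 µM, without overlap, with a log2 difference of 0.81 (SE 0.08). Of 13 other YAP and TAZ targets tested, 3 were higher at 1 µM (Nt5e, Myof and F3) and 0 lower, 5 higher and 1 lower at 50 µM, and 5 higher and 0 lower at 100 µM. The list medians were 0.11, 0.19 and 0.17 log2 units, against −0.01, 0.00 and 0.00 over all genes. Of 17 Hippo kinases and upstream regulators, 1 was higher (Wwc2) and 0 lower at 1 µM, 2 and 4 at 50 µM, and 2 and 2 at 100 µM. Of 5 other TEAD and VGLL genes, the cofactor gene Vgll3 was higher (0.45, 0.63 and 0.80) and Tead2 lower (−0.21, −0.30 and −0.33) at the doses in turn. Of 7 SRF and actin targets, 3 were higher at every dose, namely Cnn2, Tpm1 and Zyx. The immediate early gene Jun, a subunit of AP-1, was higher by 1.00, 1.31 and 1.08 log2 units, among 9 immediate early genes of which 1, 4 and 3 were called higher.

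The second set of exposed iPSCs was that of the propagation experiment. Ccn2 was at 35.3, 32.7 and 35.9 CPM with vehicle and 61.1, 58.9 and 60.3 CPM after 1 µM BPS, a log2 difference of 0.80 (SE 0.07). Ccn1 was at 15.3, 14.03 and 14.4 CPM with vehicle and 23.5, 24.2 and 21.3 CPM with BPS, a difference of 0.65 (SE 0.08). For both, the groups did not overlap, where 10.9% of genes had every exposed library above every vehicle library and 15.5% below. These values too chose the members and are a description. In BPS replicate 2, the library that stood apart, Tead1 was at 92.9 CPM against 168 and 171 CPM in the other 2, and Amotl2 at 104 CPM against 134 and 138 CPM. Axl, lower in the dose series, was at 6.96, 7.43 and 6.13 CPM with vehicle and 6.75, 5.58 and 6.68 CPM with BPS, which overlap. The 8 PGCLC markers summed to 419 to 427 CPM with vehicle and 330.4 to 382 CPM with BPS. The 8 pluripotency markers summed to 5651 to 5709 and 5716 to 6656 CPM. Among the latter, mean Dppa5a went from 1117 to 1485 CPM, and Pou5f1, Zfp42, Klf4 and Tdgf1 also had higher means. Nanog, Sox2 and Esrrb had lower means. The part of these markers in the member values was not tested. Of the pathway genes beside the members 0 were called, where limma called 0.0128% of 15572 genes higher and 0% lower and 1744 genes had an unadjusted p under 0.05. Without BPS replicate 2, limma called 1484 of 15392 genes, among them 2 other YAP and TAZ targets and 1 Hippo regulator.

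**Figure D3:**
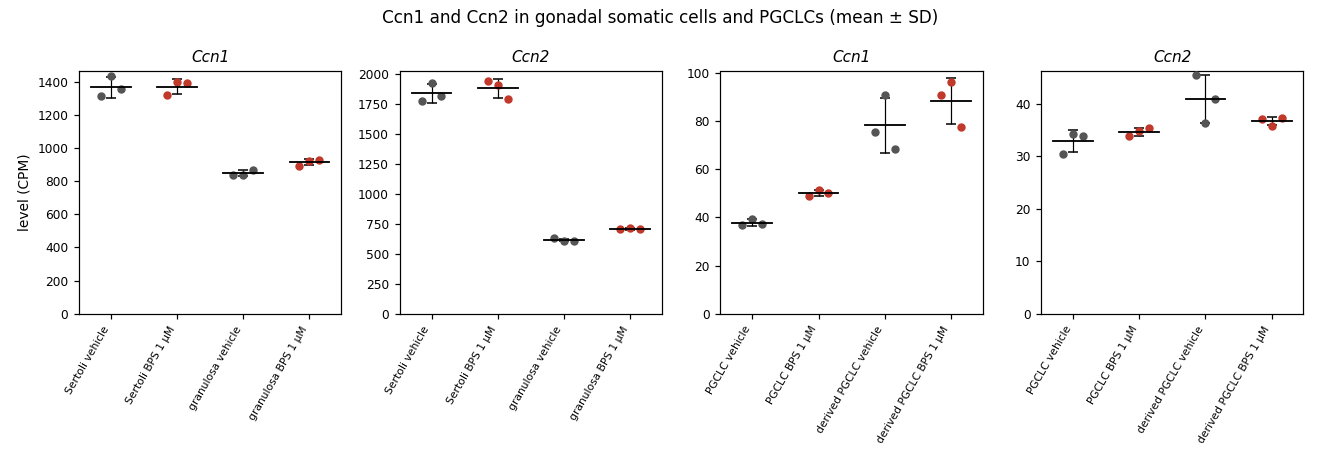
Ccn1 and Ccn2 in Sertoli cells, granulosa cells, PGCLCs and derived PGCLCs, in CPM; grey points are vehicle libraries, red points 1 µM BPS, and bars give the mean ± SD of 3 libraries. BPS libraries lie above the vehicle libraries for both genes in granulosa cells and for Ccn1 in directly exposed PGCLCs, and overlap them elsewhere.

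Cells outside the rule that chose the set were tested with limma, with p-values adjusted over all genes. In Sertoli cells 0 of 10 members were called in either direction, where 3.76% of genes were called higher and 1.48% lower. In that comparison 3425 of 15648 genes had an unadjusted p under 0.05, and 0 members did. Ccn1 was at 1313, 1437 and 1355 CPM with vehicle and 1322, 1402 and 1391 CPM with BPS. Ccn2 was at 1771, 1921 and 1816 CPM with vehicle and 1938, 1904 and 1787 CPM with BPS. Both pairs of groups overlapped, with log2 differences of 0.00 and 0.03 (SE 0.04 each). Over the 10 members the largest differences were 0.06 for Ankrd1 and −0.05 for Lats2. Of 15 other YAP and TAZ targets 0 were called, and of 19 Hippo regulators the protocadherin gene Fat1 fell by 0.18 (difference −0.18). The immediate early gene Ier3 rose by 0.13. Fibroblast markers summed to 2514 to 2542 CPM with vehicle and 2322 to 2429 CPM with BPS.

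In granulosa cells Ccn2 and Ccn1 rose after 1 µM BPS, by small amounts. Ccn2 was at 628, 606 and 608 CPM with vehicle and 704, 716 and 704 CPM with BPS, an increase of 0.21 log2 units (SE 0.02, limma adjusted p = 8.91e-05), or 1.15-fold in mean CPM. The 3 exposed libraries were all above the 3 vehicle libraries. Ccn1 was at 838, 836 and 870 CPM with vehicle and 893, 925 and 931 CPM with BPS, an increase of 0.11 (SE 0.03, limma adjusted p = 0.0241), again without overlap. The count of 2 of 10 members higher and 0 lower stands against 1.95% and 0.656% of 15712 genes. Ccn2 passed the test in 14 of 15 alternatives (adjusted p 6.91e-05 to 0.951, limma), and was lost in the fit of all 42 libraries. Ccn1 passed in 8 of 15 (adjusted p 0.0163 to 1, limma). It was lost under median-of-ratios and upper-quartile scaling (limma adjusted p = 0.0803 and 0.0861), in the fit of all 42 libraries, and without BPS replicate 2 or 3 or vehicle replicate 1 or 2 (limma adjusted p = 0.109, 0.0907, 0.063 and 0.0844).

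The other granulosa members did not pass. Ankrd1 was at 359, 320 and 332 CPM with vehicle and 342.5, 397 and 378 CPM with BPS, a difference of 0.14 (SE 0.04, limma adjusted p = 0.0840) with overlapping groups. It passed without BPS replicate 1 or vehicle replicate 1 (limma adjusted p = 0.0131 and 0.0157). Amotl2 was at 748, 708.5 and 747 CPM with vehicle and 768, 819 and 783 CPM with BPS, a difference of 0.10 (SE 0.03, limma adjusted p = 0.0589), and passed in 2 of 15 alternatives, without vehicle replicate 1 (limma adjusted p = 0.049) and with limma-voom (adjusted p = 0.0499). In all, 4 of 10 members had every exposed library above every vehicle library, as did 14.1% of genes. Yap1, Wwtr1 and Tead1 differed by −0.03, 0.02 and 0.06 (SE 0.03 each).

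Cytoskeletal genes moved in the same granulosa libraries. Of 12 SRF and actin targets 6 rose and 0 fell, with a list median of 0.11 against 0.02 over all genes. This count was not repeated under the alternatives. Upper-quartile scaling moved the share of all calls that are higher from 74.8% to 54.8% in this comparison. They included Cnn2, a calponin, which rose by 0.21 (SE 0.03, limma adjusted p = 7.56e-05), and the smooth muscle genes Acta2 (0.16) and Tagln (0.15). Of 15 other YAP and TAZ targets, Nt5e (0.51) and Igfbp3 (0.18) rose and 0 fell. Of 19 Hippo regulators, the kinase gene Map4k4 rose by 0.14 and the kinase gene Taok1 fell by 0.11 (difference −0.11). The summed level of 6 smooth muscle markers, all at a mean of 1 CPM or more and 2 of them, Acta2 and Cnn1, also in the SRF list, was 2110 to 2165 CPM with vehicle and 2330 to 2460 CPM with BPS. Fibroblast markers (10 of 10 detected) summed to 5402.5 to 5754 CPM and 5772 to 6223 CPM. Neither list had a marker at 0, and the part of such cells in the Ccn1 and Ccn2 values was not tested. In bulk samples more cells of a type and more RNA per cell cannot be told apart.

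The responses of the gonadal cells were compared by an interaction term. Of 10 members 0 differed between Sertoli and granulosa cells, where 1.28% of genes did, and 2374 of 16791 genes had an unadjusted p under 0.05. The difference for Ccn2, Sertoli minus granulosa, was −0.17 (SE 0.05, limma adjusted p = 0.0808). It passed in 3 of 21 alternatives (adjusted p 0.033 to 0.997, limma), among them the fit without Sertoli vehicle replicate 1. For Ccn1 it was −0.11 (SE 0.05, limma adjusted p = 0.307). Thus the call in granulosa cells and its absence in Sertoli cells are not shown to differ. Among the lists, Nt5e did differ, with −0.50 (SE 0.09, limma adjusted p = 0.00930).

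**Figure D4:**
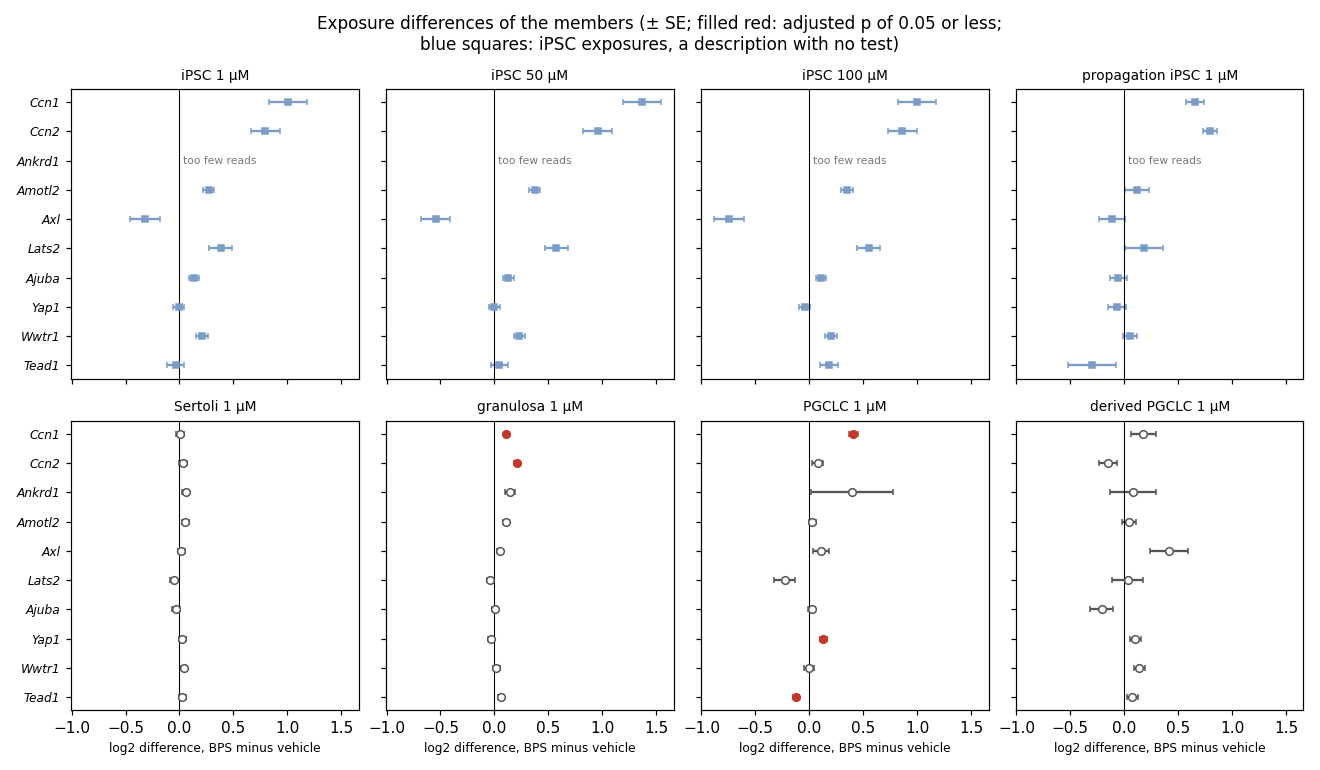
Log2 differences between BPS and vehicle for the 10 members in each of the 8 exposures, with bars of ± SE; blue squares are the iPSC exposures, a description with no test, and elsewhere filled red points passed an adjusted p of 0.05 and open points did not. Ccn1 is at 1.36 in iPSCs at 50 µM, 0.41 in PGCLCs, 0.11 in granulosa cells and 0.00 in Sertoli cells; Ankrd1 had too few reads in iPSCs.

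In PGCLCs exposed directly, Ccn1 rose without Ccn2. Ccn1 was at 36.8, 39.4 and 37.5 CPM with vehicle and 49.0, 51.4 and 50.2 CPM with BPS, an increase of 0.41 log2 units (SE 0.04, limma adjusted p = 8.22e-06), with all exposed libraries above all vehicle libraries. Ccn2 was at 30.4, 34.2 and 33.9 CPM with vehicle and 33.8, 34.8 and 35.4 CPM with BPS, which overlap, with a difference of 0.08 (SE 0.05, limma adjusted p = 0.272). The difference between the changes of the genes was not tested. Among the factors, Yap1 rose by 0.13 (SE 0.03, limma adjusted p = 0.0119), from 242, 250.1 and 245 CPM to 254, 279 and 275 CPM. Tead1 fell by 0.12 (difference −0.12, SE 0.03, limma adjusted p = 0.00648), from 239, 242 and 237 CPM to 214, 222 and 224 CPM. Neither gene's groups overlapped. Of 16342 genes, 23.5% had every exposed library above every vehicle library and 17.8% had every one below. Of the 10 members, 2 were so above and 2 below, close to these shares.

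The count of 2 members higher and 1 lower of 10 stands against 15.4% and 11.3% of 16342 genes, so that the share of members called was close to the background. Ccn1 and Tead1 passed in 14 of 15 alternatives and were lost in the fit of all 42 libraries (limma adjusted p = 0.0734 and 0.628). Yap1 passed in 11 of 15. It was lost in that fit and without BPS replicate 2 or 3 or vehicle replicate 3 (limma adjusted p = 0.051, 0.0579 and 0.0507). Lats2 was at 6.44, 6.34 and 6.45 CPM with vehicle and 5.04, 5.40 and 5.97 CPM with BPS, without overlap but with a difference of −0.23 that did not pass (SE 0.10, limma adjusted p = 0.0875). Axl, at 0.11, passed only without BPS replicate 1 (limma adjusted p = 0.0258). Amotl2, Ajuba and Wwtr1 differed by 0.03, 0.02 and 0.00.

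The immediate early genes moved most among the lists in these PGCLCs. Of 11 tested, 8 rose and 1 fell, a count that was not repeated under the alternatives. The AP-1 subunit genes Fosb, Junb and Jun rose by 2.41, 0.41 and 0.40 log2 units. Fosb was at 1.79, 1.96 and 1.47 CPM with vehicle and 11.1, 7.92 and 9.31 CPM with BPS. Ier3, an early response gene linked to cell survival, fell by 1.42 (difference −1.42). Of 19 Hippo regulators 6 rose and 2 fell, among the former Amot (0.33), which encodes angiomotin, and the scaffold gene Sav1 (0.21). Of 16 other YAP and TAZ targets 5 rose, among them Arhgef17 (0.37) and Ptpn14 (0.23), and Myof fell by 0.26 (difference −0.26). Of 11 SRF and actin targets, Tpm1 and Zyx rose and Vcl, the gene of vinculin, fell by 0.22 (difference −0.22). List medians were 0.40 for immediate early genes, 0.06 for Hippo regulators and 0.00 for the other targets and for the SRF list, against 0.02 over all genes.

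Marker levels moved with the exposure in the same libraries. The summed level of 8 pluripotency markers, all detected, was 3515 to 3569 CPM with vehicle and 2719 to 3022 CPM with BPS. That of 8 PGCLC markers, all detected, was 357 to 369 CPM with vehicle and 295 to 334 CPM with BPS. Fibroblast markers, 7 of 10 at 1 CPM or more, summed to 92.6 to 97.7 CPM and to 101 to 112 CPM. Their part in the Ccn1, Yap1 and Tead1 values was not tested.

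In PGCLCs derived from exposed iPSCs, 0 of 10 members were called, where 0% of genes were called higher and 0% lower by limma, and 2578 of 16268 genes had an unadjusted p under 0.05. Ccn1 was at 75.5, 91.0 and 68.6 CPM with vehicle and 91.0, 96.3 and 77.8 CPM with BPS, a difference of 0.18 (SE 0.11). Ccn2 was at 45.5, 36.3 and 40.8 CPM with vehicle and 37.1, 35.8 and 37.2 CPM with BPS, a difference of −0.15 (SE 0.08). Both pairs overlapped. Axl was at 19.2, 28.3 and 18.1 CPM with vehicle and 30.8, 31.4 and 24.3 CPM with BPS, a difference of 0.42 (SE 0.18, limma adjusted p = 0.308). Of the lists, 0 genes were called. Fibroblast markers summed to 306 to 445 CPM with vehicle and 319 to 505 CPM with BPS.

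The direct and derived PGCLC responses were compared by an interaction term, and 0 of 10 members differed, where 1.97% of genes did and 2987 of 16894 had an unadjusted p under 0.05. The difference for Ccn1, direct minus derived, was 0.23 (SE 0.13, limma adjusted p = 0.383), and for Ccn2 it was 0.23 (SE 0.10, limma adjusted p = 0.263). Tead1 differed by −0.20 (SE 0.06, limma adjusted p = 0.111). Without derived PGCLC vehicle replicate 2, which stood apart, Tead1 and Ajuba passed (limma adjusted p = 0.0271 and 0.0397).

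Across the 14 group means of log2 CPM, Ccn1 and Ccn2 followed each other with a Pearson r of 0.942. Ccn1 followed Lats2 (0.983), Ankrd1 (0.975), Axl (0.969) and Wwtr1 (0.964) and not Ajuba (−0.02) or Yap1 (−0.06). Yap1 and Ajuba ran opposite to each other, with −0.967. The genes most like Ccn1 of 17579 were Tcta, Ikbke, Anxa5, Spop and S100a6 (0.993 to 0.998), and those most like Ccn2 were Cap1, Rnft1, Nr0b2, Sparc and Lmna (0.992 to 0.994). The points share cell types, libraries and vehicle groups. For Ccn1 and Ccn2, most of the spread is that between the cultured gonadal cells and the other cells. For Yap1 and Ajuba it is PGCLCs that stand apart. Their direct and derived vehicle groups had the highest vehicle means of Yap1, 246 and 233 CPM, and the lowest of Ajuba, 97.2 and 106 CPM.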

How the data were processed

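Poly(A) RNA-seq of 42 libraries in 14 groups of 3 was used, and groups and replicate numbers came from the sample labels. The authors used directional libraries, FastQC for read quality, Rsubread for alignment to mm10 and counting, and TMM in edgeR for scaling. Versions of the aligner and the scaling package, and the counting's annotation, strand setting and any filter, were not given in the sources used. The authors deposited log2 CPM values, to which a CPM of 0.0313 had been added, which puts genes without reads at -5.00. This understates changes of low genes. Whole reads, within 0.05 reads, could be recovered for 100% of the tested values in every library. Replicates differed by more than sampling noise (lowest mean chi-square per gene 2.09).

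Levels are CPM without the added value. Differences are limma fits with a mean-variance trend (limma 3.58.1, R 4.3.3) over genes at 0.5 CPM or more in at least 3 libraries of the fit, called where the Benjamini-Hochberg adjusted p (two-sided) was at most 0.05, which is the study's own threshold. Doses were fitted together, vehicle groups together, and every other exposure in its own 6 libraries. The fit was tested on simulated data. Tables were made with pandas 2.3.3 and numpy 2.4.6 and plots with matplotlib 3.10.9, in Python 3.11.15. Gene spans come from GENCODE M21 on GRCm38, and promoter windows from RefSeq on GRCm38.p6.

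Alternatives were added CPM of 1 or 0.25, filters of 5 CPM or none, median-of-ratios or upper-quartile scaling, the replicate number as a block, 1 fit of all 42 libraries or of the 6 compared, limma-voom on the recovered reads, and leaving out each library. Counts between vehicle groups were restricted, a choice made after seeing the data, to genes at 0.5 CPM or more in all 6 libraries compared. The genes named are the 10 members, in each comparison up to 3 genes per list, those of smallest adjusted p, the other CCN genes and the 5 genes most like Ccn1 and Ccn2. Ier3 in PGCLCs, the only immediate early gene that fell there, the marker genes given as checks and the 5 SRF targets left out of a count were named outside this rule, Ier3 and these 5 after their values were seen. The members and lists were chosen with earlier results of these data known. Intervals of counts cover counting error only.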

Additional observations from a re-analysis of the deposited data

How the results depend on the processing

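Of the values for single members under the alternatives, 2294 kept their side of the threshold, 27 came to pass it and 55 no longer passed it. A change of sign in a value called in either fit occurred 0 times. The 2294 include uncalled values near 0 whose sign changed, such as Ajuba in exposed PGCLCs, at −0.01 to 0.04 log2 units. Of the counts, 419 stayed within 1.5 times and 77 did not, and the cause was not tested except where fewer libraries or genes enter by construction. The counts cover the members and, for exposures, the other YAP and TAZ targets and the Hippo regulators. Those of the remaining lists were not repeated under the alternatives. Calls of members in exposed iPSCs repeat the contrasts that chose the set, so they are not listed here and nothing is read from them. In 1 fit of all 42 libraries, Hippo regulators called were 0 at 1 µM (1 in the reported fit), 1 at 50 µM (6) and 2 at 100 µM (4) for iPSCs, 0 for Sertoli cells (1), 0 for granulosa cells (2), 2 in PGCLCs (8), 2 in derived PGCLCs (0) and 6 in propagation iPSCs (0). Members called in it were 0 in granulosa cells (2) and 0 in PGCLCs (3). Other YAP and TAZ targets called in it were 3 in propagation iPSCs (0), 0 in granulosa cells (2), 2 in PGCLCs (6) and 1 in derived PGCLCs (0). In the fit of 6 libraries at 1 µM, 1 other target (3) and 0 Hippo regulators (1) were called. Upper-quartile scaling gave 3 Hippo regulators at 50 µM (6), and in granulosa cells 1 member (2) and 1 other target (2), as did median-of-ratios scaling. A filter of 5 CPM gave 3 other targets at 100 µM (5). No filter gave 1 other target (2) and 1 Hippo regulator (2) in granulosa cells. limma-voom gave 1 member in the interaction of Sertoli and granulosa cells (0). Over all genes the fit of all 42 libraries called 2046 genes in propagation iPSCs (2 in the reported fit), 721 in derived PGCLCs (0), 207 in Sertoli cells (820), 38 in granulosa cells (409), 1619 in PGCLCs (4354) and 88 in the Sertoli and granulosa interaction (215), and the fit of 6 libraries called 723 at 1 µM (1397).

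With each library left out in turn, members called ranged from 1 to 3 in granulosa cells, 0 to 1 in the Sertoli and granulosa interaction and 0 to 2 in the PGCLC interaction. Other targets ranged from 1 to 4 at 1 µM, 3 to 7 at 50 µM, 3 to 5 at 100 µM, 0 to 2 in propagation iPSCs and 1 to 2 in granulosa cells. Hippo regulators ranged from 0 to 2 at 1 µM, 1 to 5 at 50 µM, 0 to 1 in propagation iPSCs, 0 to 2 in Sertoli cells, 0 to 1 in granulosa cells and 4 to 12 in PGCLCs.

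No comparison had every same-number correlation above 0.1, so the replicate numbers are not shown to pair the libraries. With the replicate number as a block, granulosa cells gave 1 Hippo regulator (2) and the Sertoli and granulosa interaction 1 member (0), Ccn2. In the same setting Sertoli cells had 1298 genes called (820). Upper-quartile scaling moved the share of calls that are higher from 65.6% to 78.8% in iPSCs at 1 µM, 49.6% to 65.01% at 50 µM, 49.8% to 63.9% at 100 µM, 71.7% to 40.4% in Sertoli cells, 74.8% to 54.8% in granulosa cells (55.9% with median-of-ratios), 57.7% to 41.1% in PGCLCs and 43.2% to 29.0% in the PGCLC interaction.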

Other observations

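In the iPSC dose series, the library numbered 1 was the lowest and the library numbered 3 the highest for both Ccn1 and Ccn2 in all 4 groups. The same held for 45 of 16349 tested genes, or 0.275%, among them the immediate early genes Fos, Jun and Egr1. The labels do not say whether a number marks a shared day or batch.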
